A study of Mus musculus with 13 samples.

Results

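The genes described here are the collagens, the family of structural matrix proteins whose chains carry long runs of repeating glycine triplets and wind around one another into a triple helix. They were chosen by symbol (Col, a number, a and a number) from the probe sets that name 1 gene, and where a gene had several, the brightest on average stood for it. Of 19537 genes so named on the array, 43 were collagens, measured by 45 probe sets. Of the 44 collagen genes in the RefSeq table, 1 (Col22a1) had no such probe set and was not analysed here. The family held 11 fibrillar genes, 6 of the basement membrane, 6 of beaded filaments, 3 of short-chain networks, 8 of the FACIT group (collagens that sit on the surface of fibrils), 4 transmembrane genes, 2 multiplexins, 1 anchoring fibril gene and 2 others.

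Cells came from the livers of naive C57BL/6 mice aged 6 to 10 weeks, with no treatment. Hepatocytes, which make up the liver parenchyma, Kupffer cells, its resident macrophages, and LSEC, the endothelium of its sinusoids, were freshly sorted, with 3 arrays of each. Hepatic stellate cells (HSC), the retinoid-storing pericytes of the sinusoid, were kept in DMEM with 10% FBS and sampled at day 1 (2 arrays), day 7 (1 array) and day 14 (1 array). No array of uncultured HSC was analysed here, so HSC identity and culture cannot be told apart in any comparison with the other populations. The sources used here do not say whether arrays came from separate animals or from pools, and p-values measure only the spread between these arrays. In whole-population RNA, fewer cells of a type and less RNA per cell cannot be told apart.

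Collagen chains are made in the endoplasmic reticulum, where their prolines and lysines are hydroxylated and chaperones guard the helix, and fibrillar collagens are trimmed and cross-linked outside the cell. In healthy liver, type IV collagen lies in the space of Disse behind the sinusoidal endothelium, while fibrillar collagens are concentrated around portal tracts and central veins. In fibrosis, stellate cells become myofibroblasts and are the main source of fibrillar collagen, and growth on plastic with serum is the standard way to bring that change about in a dish.

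Marker genes were read first. The 8 measured stellate markers summed to 23995 to 25164 on the 1-day HSC arrays, 25077 at 7 days and 23220 at 14 days, against at most 3472 on any freshly sorted array. Dcn made up 11402 to 12317 of each HSC sum, and the members moved apart in culture: Reln went from 4331 and 4597 to 2270 and 276.6, Hgf from 1196 and 1479 to 704.7 and 202.0, Des from 2707 and 2932 to 3769 and 4019, and Pdgfrb from 3176 and 3531 to 5447 and 5278. Markers of other cells were also read on the 1-day HSC arrays. The 9 hepatocyte markers summed to 9563 to 15664 there, against 111613 to 116921 in hepatocytes and 1173 and 1113 at 7 and 14 days. The 9 LSEC markers summed to 10060 to 10754, against 43498 to 62197 in LSEC and 1967 and 2369 in the longer cultures, and the 8 Kupffer markers summed to 2344 to 3417, against 66738 to 70126 in Kupffer cells. Most of the hepatocyte sum on the 1-day arrays was Alb, at 8855 and 6285. Most of their LSEC sum was Cdh5, at 6552 and 5427, a gene also read at 9141 to 10040 in Kupffer cells, while Stab2 read 624.8 and 623.0 against 4177 to 7490 in LSEC and Lyve1 read 812.4 and 725.9 against 7530 to 8384. Array medians lay between 216.5 and 232.9.

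Promoter letters were taken for the 4 collagens with the widest culture rises among those whose RefSeq window begins at the outer edge of the gene. Each line below gives the 250 bases before the gene start from RefSeq (GRCm38.p6), read along the gene's own strand, with CCAAT in capitals where it occurs on that strand. CCAAT is the box bound by the factor CBF in type I collagen promoters. The windows lie at chr16:57754738-57754987 (minus strand), chr6:4505368-4505617 (plus), chr1:45311288-45311537 (plus) and chr10:76726045-76726294 (minus), in that order.
Col8a1: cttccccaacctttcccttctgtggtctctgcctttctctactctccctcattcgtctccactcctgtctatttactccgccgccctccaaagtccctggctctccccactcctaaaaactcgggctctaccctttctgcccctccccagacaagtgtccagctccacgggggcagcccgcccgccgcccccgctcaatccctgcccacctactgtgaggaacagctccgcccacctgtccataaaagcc
Col1a2: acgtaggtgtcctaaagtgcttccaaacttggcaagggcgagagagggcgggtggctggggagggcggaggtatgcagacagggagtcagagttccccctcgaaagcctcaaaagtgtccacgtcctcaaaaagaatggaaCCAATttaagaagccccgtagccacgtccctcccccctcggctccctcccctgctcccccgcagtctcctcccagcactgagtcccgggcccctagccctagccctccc
Col3a1: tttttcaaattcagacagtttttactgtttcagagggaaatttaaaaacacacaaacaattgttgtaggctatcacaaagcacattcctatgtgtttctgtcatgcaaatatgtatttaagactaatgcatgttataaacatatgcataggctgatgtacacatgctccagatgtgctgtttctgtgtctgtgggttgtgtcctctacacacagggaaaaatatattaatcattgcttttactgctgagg
Col6a1: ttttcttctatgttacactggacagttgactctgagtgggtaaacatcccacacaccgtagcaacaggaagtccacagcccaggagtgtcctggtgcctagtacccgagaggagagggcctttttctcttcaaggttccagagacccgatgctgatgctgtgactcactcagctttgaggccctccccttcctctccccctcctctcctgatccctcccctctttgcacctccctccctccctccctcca
In this set CCAAT stood in the Col1a2 window, at -109 to -105 from the gene start. TATAAA, a core promoter element, stood in the Col3a1 window at -117 to -112, and GGAATG, the core of TEAD sites, stood there at -168 to -163 on the opposite strand. Over the family, 35 of 43 genes had a window. With both strands searched, CCAAT was in 13 of the 35 (37.1%) and in 33.8% of all 32851 windows, TATAAA in 5 (14.3%, against 12.4%) and GGAATG in 4 (11.4%, against 12.6%). A collagen gene counted if any of its windows held the match, while the share over all was counted per window, so the units differ. Of the 12 collagens that rose in culture, 8 had a window, and 3 of those held CCAAT (37.5%), 1 TATAAA (12.5%) and 1 GGAATG (12.5%). A match describes these letters only.

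The first comparison asked which collagens set a liver population apart. At 1 day of culture, HSC carried more of 6 collagens than each of the other 3 populations, hepatocytes carried more of 1, and Kupffer cells and LSEC carried more of none. The 6 were the type I chains Col1a1 and Col1a2, the type V chain Col5a2, the short-chain network gene Col8a1 and the fibril-surface genes Col12a1 and Col14a1. A gene was called where the limma fit over 11 arrays gave a log2 difference of at least 1 on the log2(intensity + 83) scale and an adjusted p below 0.05 against each other population, and 31 of the 43 collagens were bright enough to be tested. The calls covered 2.59% of all 12081 genes tested for 1-day HSC, 6.80% for hepatocytes, 6.53% for Kupffer cells and 2.35% for LSEC. At an unadjusted limma p below 0.05 with no minimum difference, Kupffer cells had 1 collagen higher than in each other population and LSEC 0. The share of all genes at that rule is not given here. The median collagen difference between 1-day HSC and the nearest population was 0.01, against 0.03 over all genes. Each gene entered only with its difference from the nearest of the other 3 populations. The median therefore cannot show whether the family was level across populations.

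**Figure D1:**
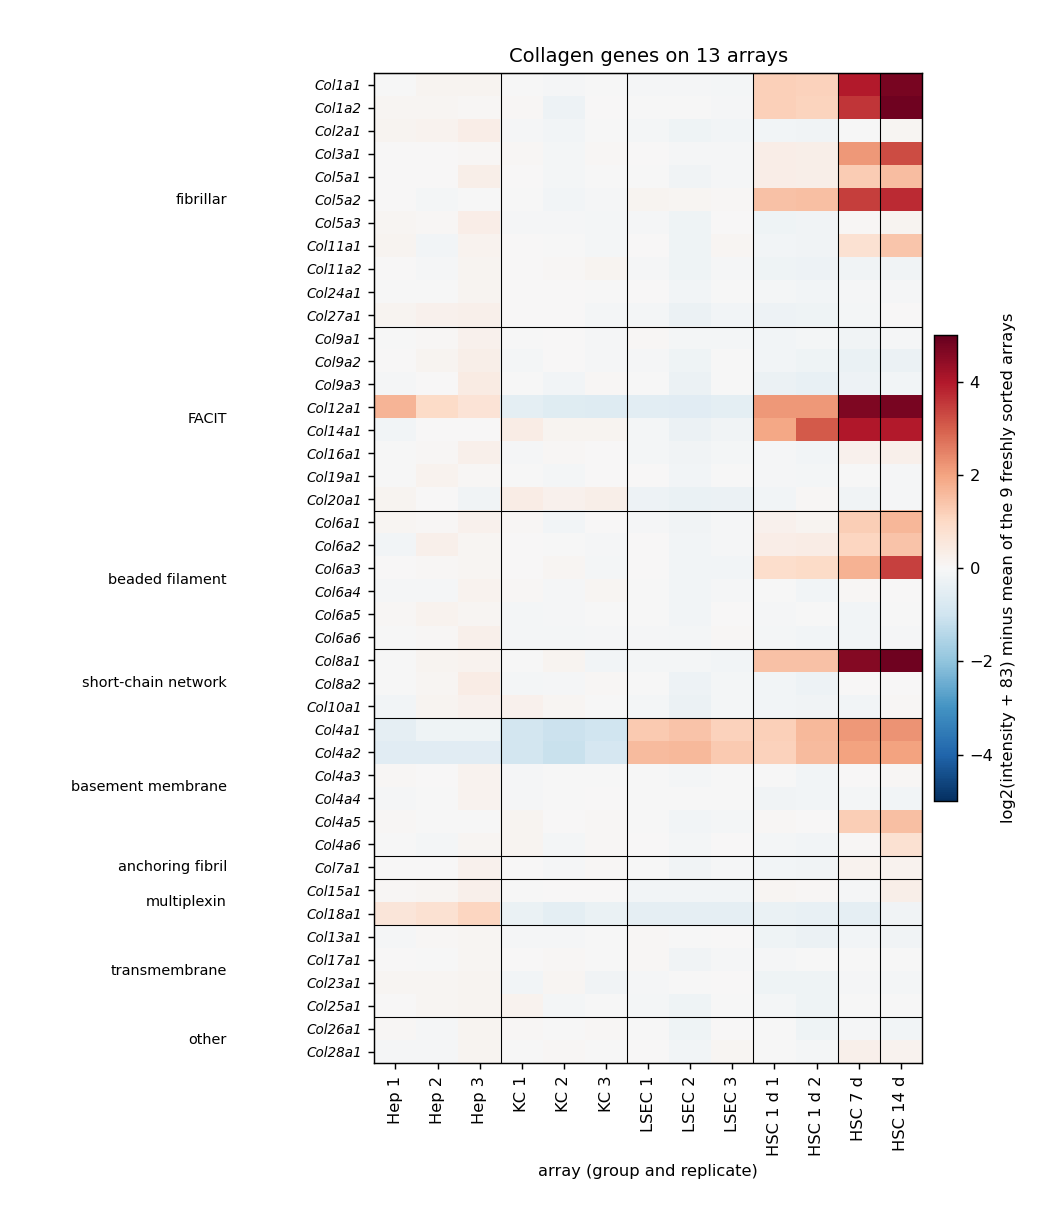
Heat map of the 43 collagen genes (rows, grouped by structural class) on the 13 arrays (columns), coloured by log2(intensity + 83) minus the gene's own mean over the 9 freshly sorted arrays. Col4a1 and Col4a2 are red in LSEC and in all HSC arrays, Col18a1 is red in hepatocytes, and the strongest reds are in HSC at 7 and 14 days for Col1a1, Col1a2, Col8a1, Col12a1 and Col14a1.

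Of the fibrillar chains, Col1a1, Col1a2 and Col5a2 were called higher in 1-day HSC than in each other population. Col1a1, the main chain of type I collagen, read 934.9 and 904.8 on the 1-day HSC arrays, 354.0 to 412.6 in hepatocytes, 342.0 to 362.2 in Kupffer cells and 335.3 to 348.5 in LSEC. The HSC arrays lay above all 9 freshly sorted arrays, and the log2 difference from hepatocytes, the nearest population, was 1.08 (SE 0.0812, limma adjusted p = 1.8e-07). Its partner Col1a2 read 710.9 and 673.8, against 208.5 to 289.6 on the fresh arrays, a log2 difference of 1.08 from hepatocytes (SE 0.0947, adjusted p = 7.8e-07). With the pooled median as the constant added before the log, these became 0.90 and 0.85, under the size threshold. Col5a2, a chain of the type V collagen that starts fibrils, read 605.1 and 618.1 in 1-day HSC and 146.7 to 187.5 in the fresh cells. Its log2 difference from LSEC was 1.38 (SE 0.0758). Col3a1, the type III chain found with type I in soft tissue, was higher by less: 341.7 and 323.1 against 231.0 to 266.3, a log2 difference of 0.29 from hepatocytes that did not reach the size threshold (adjusted p = 0.0060). Col5a1, the other common type V chain, read 394.3 and 377.5 in HSC and 381.3 on 1 hepatocyte array, so the groups overlapped. So did those of Col5a3 and Col11a1, both lowest or nearly so in 1-day HSC.

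Outside the fibrils, Col8a1, a short-chain collagen that forms hexagonal lattices and is made by vascular cells, read 631.8 and 620.6 in 1-day HSC and 149.4 to 210.3 elsewhere. The log2 difference from hepatocytes was 1.36 (SE 0.0964). Its usual partner chain Col8a2 read 140.9 and 125.0, within the fresh range, and was not bright enough to be tested. Col5a2 and Col8a1 passed the brightness filter only through HSC arrays, as did Col6a3, so a difference was built into their testing. With either 1-day array left out, Col5a2 and Col8a1 were no longer tested and 4 collagens were called.

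The fibril-surface collagens Col14a1 and Col12a1, which bind to type I fibrils and space them, were also higher in 1-day HSC. Col14a1 read 1212 and 2750 on the 1-day HSC arrays and 195.3 to 353.6 in the fresh cells. The HSC arrays lay apart from each other and above all fresh arrays. The log2 difference from Kupffer cells, the nearest, was 2.28 (SE 0.234, adjusted p = 2.7e-06). Col12a1 read 1252 and 1245 in HSC, 105.6 to 129.8 in Kupffer cells and 118.7 to 128.2 in LSEC. Hepatocytes read 876.9, 494.3 and 396.7, between HSC and the other cells. The log2 difference of HSC from hepatocytes was 1.05 (SE 0.209, adjusted p = 7.5e-04), and it fell under the threshold, to 0.97 and 0.84, without hepatocyte replicate 2 or 3, to 0.95 after quantile normalization and to 0.97 with the replicate number as a block. The first hepatocyte array, highest for Col12a1, was also highest for the cross-linking enzyme gene Lox, at 826.7 against 249.0 and 210.9. The part of other cells in that array was not tested.

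Hepatocytes had 1 collagen of their own. Col18a1, whose C-terminal end is the angiogenesis inhibitor endostatin and which hepatocytes are known to make, read 571.9, 652.2 and 829.8 in hepatocytes and 226.2 to 260.0 in the other 3 populations. Compared with 1-day HSC the log2 difference was 1.18 (SE 0.119, adjusted p = 2.7e-06), and the longer HSC cultures read 227.3 and 296.6. It was 0.92, and no longer called, with the pooled median added before the log. Its relative Col15a1, the other multiplexin, ranged from 185.9 to 279.3 over all 13 arrays with no call. Hepatocytes also stood above Kupffer cells and LSEC for Col12a1, by 1.69 (SE 0.187) and 1.63 (SE 0.187). These made 2 collagens higher in hepatocytes than in Kupffer cells (12.0% of all genes) and 2 higher than in LSEC (10.0%).

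Type IV collagen gave a pattern that the rule of exceeding every other population hides, because LSEC and HSC shared it. Col4a1 and Col4a2 encode the chains of the common basement membrane network. Col4a1 read 1714, 1828 and 1491 in LSEC and 1535 and 2097 in 1-day HSC, against 435.6 to 539.9 in hepatocytes and 256.1 to 296.8 in Kupffer cells. Col4a2 read 1836, 1923 and 1534 in LSEC and 1354 and 1855 in 1-day HSC, against 351.6 to 358.4 and 217.4 to 280.9. LSEC and HSC overlapped for both genes, and both groups lay above every hepatocyte and Kupffer array.

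LSEC exceeded hepatocytes by 1.59 for Col4a1 (SE 0.120, adjusted p = 1.5e-07) and 2.07 for Col4a2 (SE 0.120), and Kupffer cells by 2.29 and 2.45. These were the only 2 collagens called higher in LSEC than in hepatocytes or than in Kupffer cells, in comparisons that called 12.5% and 10.3% of all genes. HSC exceeded hepatocytes by 1.69 and 1.93 and Kupffer cells by 2.39 and 2.31. With the 6 above, 8 collagens were called higher in 1-day HSC than in hepatocytes (12.3% of all genes) and 8 than in Kupffer cells (12.9%).

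Set directly against each other, 1-day HSC and LSEC differed in 6 collagens, the same 6, all higher in HSC (5.60% of all genes), with none lower (5.24%). At an unadjusted limma p below 0.05 with no minimum difference, 13 were higher and 1 was lower, and the share of all genes at that rule is not given here. The largest differences were those of Col12a1 and Col14a1, both 2.68. For Col4a1 the difference, HSC minus LSEC, was 0.10 (95% interval -0.20 to 0.39, adjusted p = 0.59), and for Col4a2 it was -0.14 (-0.43 to 0.15, adjusted p = 0.42). Each sign turned when 1 HSC array was left out, to -0.12 for Col4a1 without replicate 2 and to 0.08 for Col4a2 without replicate 1. The part of the LSEC marker RNA on the 1-day arrays in these levels was not tested. At 7 and 14 days, Col4a1 read 3165 and 3300 and Col4a2 2516 and 2504, each above every LSEC array. These later arrays do not measure what part of the 1-day levels came from other cells.

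The other basement membrane chains did not share the pattern. Col4a3 ranged from 166.1 to 229.0 and Col4a4 from 206.4 to 282.7 over all arrays, and Col4a5 and Col4a6 were at most 208.0 on any array outside the longer cultures. In RefSeq's order Col4a1 and Col4a2 are neighbours in opposite orientation with starts 21 bases apart. Their full promoter windows, from 250 bases before the start to 50 bases after it, overlap by 78 bases. This overlap lies around the starts, and the 250-base stretches before them share no base. Col4a5 and Col4a6, on chromosome X, are also neighbours in opposite orientation, with starts 1343 bases apart.

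**Figure D2:**
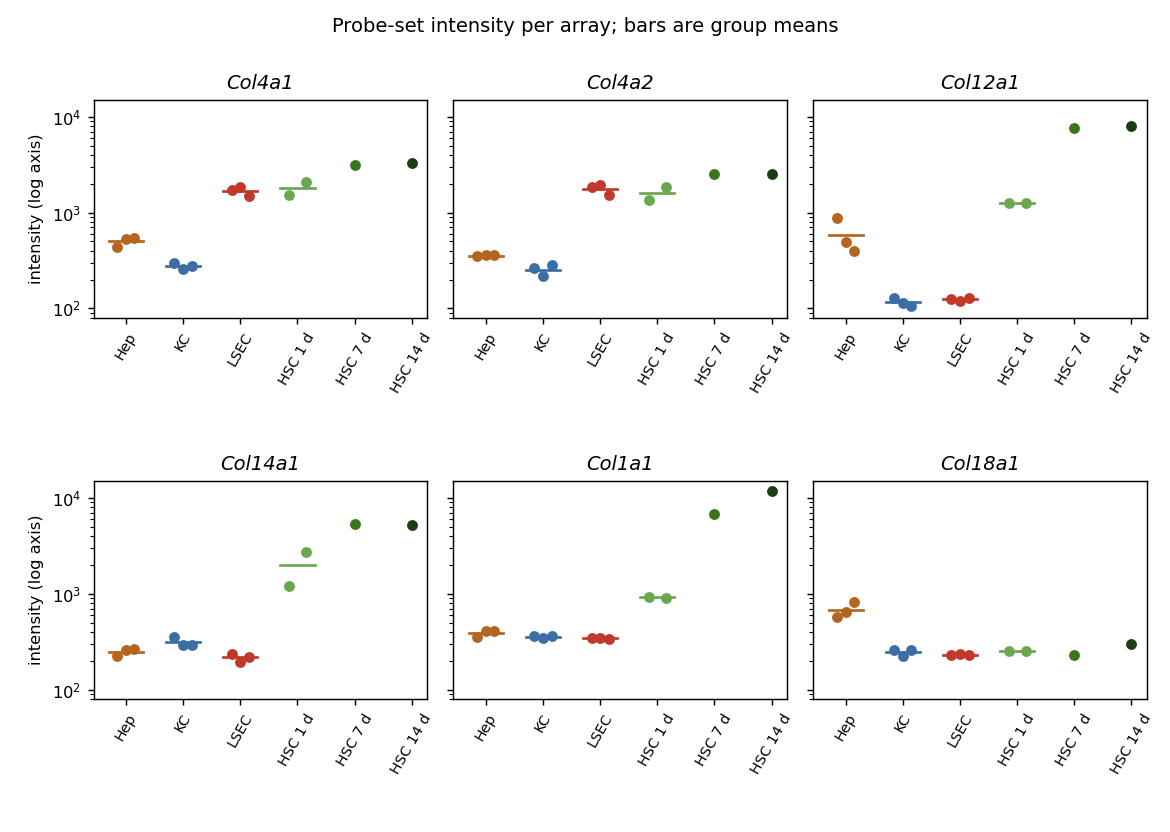
Probe-set intensity (log axis) of 6 collagens on each of the 13 arrays, by group (Hep, hepatocytes; KC, Kupffer cells), with bars at the means of groups of more than 1 array. LSEC and 1-day HSC overlap for Col4a1 and Col4a2, Col18a1 is highest in hepatocytes, and Col12a1, Col14a1 and Col1a1 are highest in the HSC arrays.

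The second comparison asked how the collagens of HSC changed with time in culture, the standard in vitro model of stellate cell activation. In whole-population RNA, activation and a change in the mix of cells cannot be told apart. Set against day 1, the 7-day and 14-day arrays, merged, had 12 collagens higher and none lower. They were 6 of the 10 fibrillar genes tested, the FACIT genes Col12a1 and Col14a1, the beaded filament genes Col6a1 and Col6a3, the network gene Col8a1 and the basement membrane gene Col4a5. The limma fit over 13 arrays tested 12368 genes and called 5.52% of them higher and 4.27% lower, and 32 of the 43 collagens were tested. At an unadjusted p below 0.05 with no minimum difference, 18 collagens were higher and 0 lower. The share of all genes at that rule is not given here. The median log2 difference of the 32 tested collagens was 0.34, against -0.04 over all genes. The spread behind these tests came from all groups, with days 7 and 14 treated as replicates.

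The fibrillar genes moved widest in the type I chains. Col1a1 went from 934.9 and 904.8 at day 1 to 6807 at day 7 and 11780 at day 14, ratios to the day 1 mean of 7.40 and 12.8. The log2 difference was 3.17 (SE 0.179, adjusted p = 5.3e-08). Col1a2 went from 710.9 and 673.8 to 4020 and 9861, a difference of 3.04 (SE 0.275, adjusted p = 3.4e-06). The 2 chains of the type I molecule, encoded on different chromosomes, thus rose by similar amounts, and both were still higher on the 14-day array than on the 7-day array.

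Col3a1 went from 341.7 and 323.1 to 1397 and 3098, a log2 difference of 2.39 (SE 0.236, adjusted p = 7.1e-06). Its neighbour on chromosome 1, Col5a2, with no protein-coding gene between them in RefSeq's order, went from 605.1 and 618.1 to 2621 and 3266, a difference of 2.12 (SE 0.101, adjusted p = 1.5e-08). Smaller differences were those of Col5a1 and Col11a1. Col5a1, another type V chain, went from 394.3 and 377.5 to 839.9 and 1038, a difference of 1.12 (SE 0.118). Col11a1, the type XI chain best known from cartilage and also made by activated fibroblasts, went from 230.5 and 224.7 to 496.9 and 831.9, a difference of 1.23 (SE 0.177, adjusted p = 1.3e-04).

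The third type V chain, Col5a3, read 276.1 and 296.8 in the longer cultures and had a difference of 0.29 (adjusted p = 0.038), under the size threshold. Col2a1, the cartilage fibril chain, had a difference of 0.20 (95% interval -0.01 to 0.40). The 5 fibrillar genes with no call in any comparison kept between 161.6 and 457.3 on all arrays, with the highest array at most 1.61 times the lowest.

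On the fibril surface, Col12a1 went from 1252 and 1245 to 7572 and 7952, a log2 difference of 2.56 (SE 0.224, adjusted p = 2.7e-06). Col14a1 went from 1212 and 2750 to 5370 and 5171, a difference of 1.48 (SE 0.250, adjusted p = 4.2e-04). The day 1 arrays of Col14a1 lay apart, and without day 1 replicate 1 its difference was 0.92, under the size threshold. Col16a1, a FACIT gene of skin and other connective tissue, had a difference of 0.34 (adjusted p = 0.014), and Col9a3 one of 0.13. The 6 uncalled FACIT genes lay between 103.0 and 541.7 on all arrays.

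Col8a1 had the largest culture difference of the collagens tested. It went from 631.8 and 620.6 to 6161 and 7361, a log2 difference of 3.27 (SE 0.114, adjusted p = 9.7e-10), while Col8a2 read 163.2 and 167.3 at days 7 and 14. The signal of the partner chain thus stayed below the pooled median of 224.5 in all HSC arrays.

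The type VI chains, which assemble into beaded filaments around cells, fell into groups. Col6a1 went from 319.0 and 298.6 to 744.5 and 1007, a log2 difference of 1.28 (SE 0.123). Col6a2, its neighbour on chromosome 10, went from 340.4 and 350.8 to 615.7 and 830.4, a difference of 0.90 (SE 0.136, adjusted p = 1.9e-04) that missed the size threshold. Col6a3, the long chain that joins them, went from 416.7 and 434.8 to 827.0 and 2835, a difference of 1.68 (SE 0.349, adjusted p = 0.0018). Its 2 long-culture arrays lay far apart, and with the 4 HSC arrays fitted alone its adjusted p was 0.061. The alternative chains Col6a4, Col6a5 and Col6a6, encoded side by side, kept between 148.5 and 431.8 on all arrays.

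Of the type IV chains, Col4a5 went from 189.5 and 181.3 to 529.9 and 663.5, a log2 difference of 1.33 (SE 0.103, adjusted p = 9.1e-07). It passed the brightness filter only through the 2 long-culture arrays. Its neighbour Col4a6 read 145.6 and 141.4 at day 1, 170.1 at day 7 and 333.8 at day 14 and was not tested. Col4a1 and Col4a2 had differences of 0.82 (SE 0.144, adjusted p = 5.8e-04) and 0.64 (SE 0.143, adjusted p = 0.0031), and Col4a1 passed at 1.03 without day 1 replicate 2. The remaining classes had no call: the anchoring fibril gene Col7a1 had a difference of 0.33 (adjusted p = 0.012), the transmembrane genes Col23a1 and Col13a1 0.15 and 0.09, and the multiplexins Col15a1 and Col18a1 0.03 each.

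Without the 14-day array, 8 of the 12 were called. Col11a1 at 0.90, Col5a1 at 0.98 and Col6a3 at 0.84 fell under the size threshold, and Col4a5 was no longer tested. Without the 7-day array, 12 were called, with Col6a2 at 1.09 among them and Col4a5 again not tested. With the pooled median added before the log, 9 were called, and Col11a1 at 0.95 and Col5a1 at 0.93 were not among them, nor was Col4a5.

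**Figure D3:**
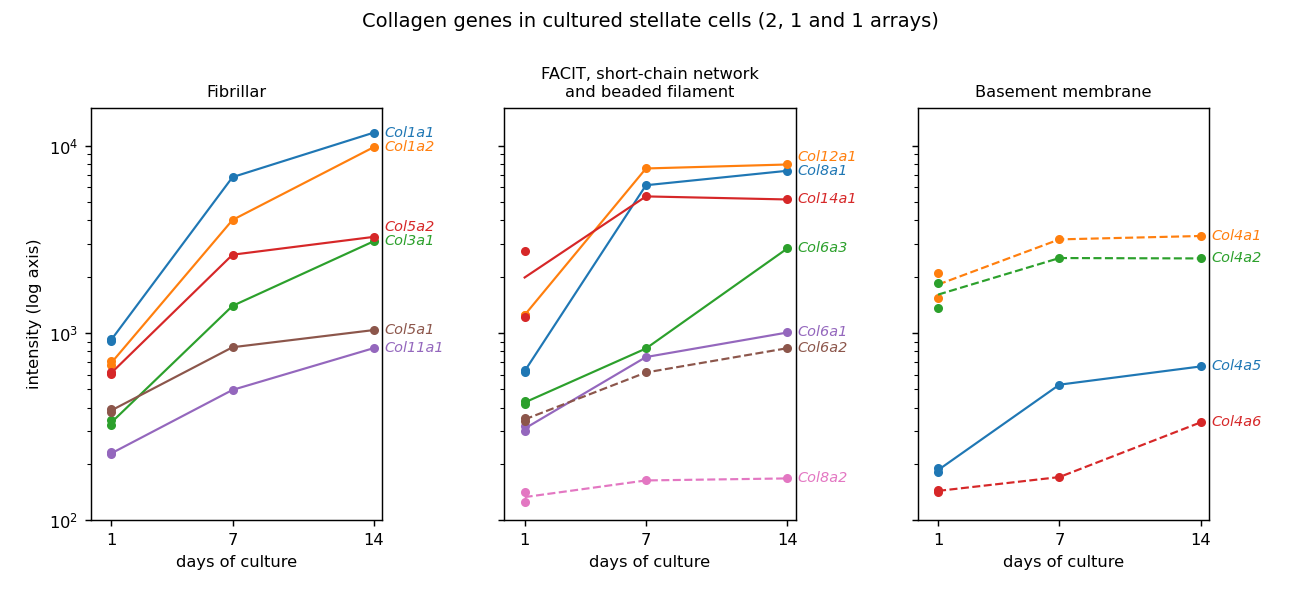
Intensity (log axis) of the collagens called in culture (solid lines) and of Col4a1, Col4a2, Col4a6, Col6a2 and Col8a2 (dashed lines, not called) in HSC at 1, 7 and 14 days, by structural class. Points are single arrays (2 at day 1, 1 at each later day) and lines join the day 1 mean to the later values. Col12a1, Col14a1 and Col8a1 are nearly level after day 7, while Col1a2, Col3a1 and Col6a3 keep climbing.

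**Figure D4:**
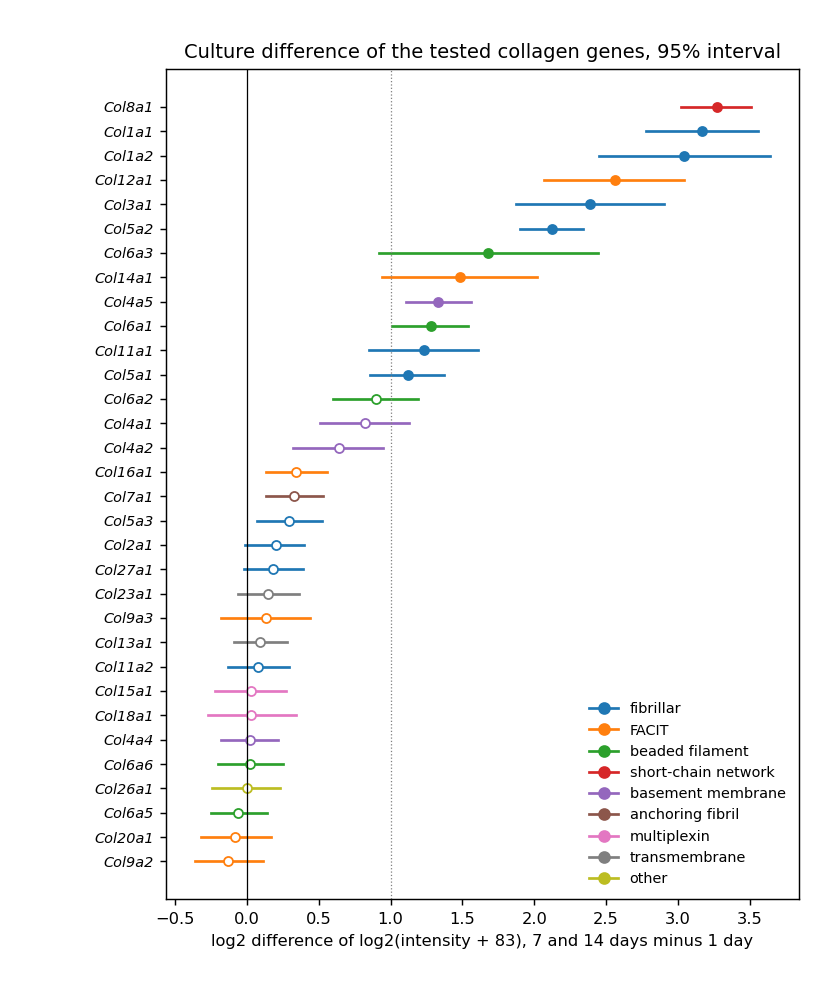
Log2 difference of each of the 32 tested collagens, 7-day and 14-day HSC minus 1-day HSC, with its 95% interval from limma, coloured by structural class. Filled points were called, the dotted line marks the size threshold of 1, and the called genes run from Col5a1 at 1.12 to Col8a1 at 3.27.

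The longer cultures were also set against the freshly sorted cells. They had 13 collagens higher than each of the 3 populations, the 12 above and Col6a2 at 1.17 (5.05% of all genes), and none lower (0.703%). At an unadjusted limma p below 0.05, 15 were higher and 0 lower, and the share of all genes at that rule is not given here. This comparison shares its long-culture arrays with the one above. Col4a5, Col5a2, Col6a3 and Col8a1 passed the brightness filter only through HSC arrays, so a difference from the fresh cells was built into their testing. Log2 differences from the nearest population were 4.62 for Col8a1, 4.26 for Col1a1, 4.12 for Col1a2, 3.76 for Col14a1, 3.61 for Col12a1 and 3.50 for Col5a2. Col6a2 fell to 0.98 and Col11a1 from 1.01 to 0.68 without the 14-day array, and Col11a1 to 0.91 without hepatocyte replicate 2. Col4a1 and Col4a2, high in LSEC, had differences of 0.92 and 0.49 from LSEC.

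Day 7 and day 14 had 1 array each, so their difference has no replicate check. By size alone, 3 of the 32 tested collagens were past a log2 difference of 1 upward at day 14 (0.574% of all genes) and none downward (0.986%). They were Col6a3 at 1.68, Col1a2 at 1.28 and Col3a1 at 1.10, or ratios of 3.43, 2.45 and 2.22. Col1a1 followed with a ratio of 1.73 and Col11a1 with 1.67. Col12a1, Col14a1 and Col8a1 had ratios of 1.05, 0.963 and 1.19. On these single arrays the fibril-surface and short-chain genes thus read nearly alike on both days, while type I, type III and the long type VI chain read higher on the later one.

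Markers of other mesenchymal cells moved over the same days. The 7 portal fibroblast markers summed to 3931 to 4524 at day 1, 14877 at day 7 and 20015 at day 14, against 1090 to 1242 in the fresh cells. Fbln2 made up 8432 and 12646 of the later sums, Mfap5 3306 and 3640 and Thy1 2026 and 2352. In contrast, Dpt went from 727.9 and 1058 to 149.7 and 51.9, and Gli1 read 223.6 and 196.3, then 210.5 and 211.0. The 5 vascular smooth muscle markers went from 1983 to 2296 up to 8762 and 10981. Actg2 made up 4906 and 7193 of these later sums and Myh11 2824 and 2849, while Rgs5 went from 1101 and 1144 to 286.9 and 127.7. The 6 mesothelial markers went from 985 to 1064 up to 1629 and 3503. The 7 myofibroblast markers summed to 49767 to 54675, 78315 and 74950. The part of such cells in the collagen rises was not tested.

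The genes that process collagen were read from a list of 37, of which 34 were measured. The list was drawn up with earlier results of these data known, so its counts are not independent evidence. In 1-day HSC 10 of 31 tested were higher than in each other population, where 2.59% of all genes were called. Of the 10, 5 (Adamts14, Loxl1, Loxl4, P3h4 and Plod2) passed the brightness filter only through the HSC arrays, so a difference was built into their testing. Lox, which starts cross-links between fibrils, read 5062 and 5068 and differed from hepatocytes by 3.53 (SE 0.343). Plod2, the lysyl hydroxylase of cross-link sites, differed by 2.63, Serpinh1, the collagen chaperone HSP47, by 2.09, and the prolyl 3-hydroxylase gene P3h2 by 2.07. Leaving out day 1 replicate 1 left 5 called, and leaving out replicate 2 left 6, and in each case 4 of the lost genes were no longer tested. Hepatocytes were highest for Mia2, a cargo receptor for large secreted proteins, and Kupffer cells for Pcolce2, an enhancer of procollagen trimming, by 3.66 and 2.61.

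In longer culture 14 of 32 tested processing genes were higher and none lower, in a comparison that called 5.52% of all genes higher and 4.27% lower. At an unadjusted limma p below 0.05 with no minimum difference, 3 were lower, and the share of all genes at that rule is not given here. Tll1 passed the filter only through the long-culture arrays. P4ha3, a prolyl 4-hydroxylase subunit, went from 398.8 and 295.4 to 2361 and 3179, a difference of 2.73 (SE 0.144, adjusted p = 3.1e-08). The procollagen proteinase gene Tll1 differed by 2.30, the proteinase enhancer gene Pcolce by 2.21 and Bmp1, the main C-proteinase, by 1.89. Without the 7-day array 1 gene of the list was lower. P3h1 at 0.98 and P3h4 at 0.88 did not pass. Serpinh1, at 3108 and 3730 on day 1, read 3944 and 3624 later (difference 0.15, adjusted p = 0.51).

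Receptors and collagen-cleaving enzymes formed a list of 18, of which 17 were measured. This list too was drawn up with earlier results known. In 1-day HSC 4 of 13 tested were higher than elsewhere, against 2.59% of all genes: the fibrillar collagen receptor gene Ddr2 by 4.29, the gelatinase gene Mmp2 by 2.83, the collagenolytic cathepsin gene Ctsk by 2.23 and the collagenase gene Mmp13 by 1.66. Ddr2 and Ctsk passed the filter only through the HSC arrays. Longer culture raised 6 other members of 14 tested and lowered none, against 5.52% and 4.27% of all genes. At an unadjusted limma p below 0.05, 0 were lower, and the share of all genes at that rule is not given here. The endocytic collagen receptor gene Mrc2 differed by 2.45, the integrin genes Itga11 and Itga2 by 2.25 and 1.52, and Ddr1 by 1.77. Itga11, at most 186.4 on any array outside the longer cultures, passed the filter only through them. Ddr2 had a culture difference of -0.08, and Mmp2 one of 0.41 (adjusted p = 0.29).

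Of the 43 collagens, 27 were called in no comparison. Without Col4a6, whose ratio of highest to lowest array was 2.36, the other 26 lay between 85.13 and 541.7 on all 13 arrays. Their median ratio was 1.45. Some of the 27 differed by less than the size threshold at an adjusted limma p below 0.05. Among these, Col20a1 was 0.58 higher in Kupffer cells than in LSEC, and Col16a1 rose by 0.34 in culture. The 16 called genes had ratios from 3.67 to 75.30. A call needs a log2 difference of at least 1, so wider ratios in called genes follow from the rule. The second probe sets of Col6a5 and Col6a6 read 58.58 to 87.06 and 80.38 to 113.5.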

How the data were processed

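RNA of 13 samples was hybridised as biotin-labelled cRNA to Affymetrix mouse arrays. The deposited table holds a linear intensity for every probe set on each array, summarised by the authors. Affymetrix Expression Console and MAS5 (version 5.0) are named in the submitters' processing notes. How background was corrected, how arrays were normalized and which genome build was used are not given in the sources used here, and no further normalization was applied.

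Values were taken as log2(intensity + 83), 83 being the pooled 20th percentile, which understates the fold of dim genes. Genes were tested if 2 or more arrays of the fit exceeded 224.5, the median of all values pooled, and the test was limma 3.58.1 in R 4.3.3 (lmFit, eBayes, two-sided), with Benjamini-Hochberg adjustment over all genes within a contrast. The population fit had 7 residual degrees of freedom and the culture fit 8. A call needed an adjusted p below 0.05 and a log2 difference of at least 1. The value printed for a population is the difference from its nearest other population. Collagen symbols were matched to RefSeq by Entrez identifier (43 of 43).

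The collagens named are all those called and a set of main chains, with up to 2 uncalled members per class. Members, lists and this rule were chosen with earlier results of these data known. The fits were tested on simulated data: of 200 genes changed by 1.5 on the log2 scale, 190 came back for 1-day HSC (12081 genes) and 181 in culture (12368 genes), with 0 false calls in each. No smaller change was simulated, so this does not cover calls with differences near the size threshold of 1. Alternatives covered scaling, pseudocount, filter, probe set rule, size threshold, prior, arrays in the fit, each array left out and the replicate number as a block.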

Additional observations from a re-analysis of the deposited data

How the results depend on the processing

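Of 1605 values of single genes under the alternatives, 1554 kept their direction and side of the threshold, 36 lost the call, 13 gained it and 2 changed sign (1-day HSC against LSEC: Col4a1 ran from -0.12 to 0.31 and Col4a2 from -0.36 to 0.08 as each array was left out). With the pooled median as pseudocount, collagens higher than in each other population numbered 0 in hepatocytes and 3 in 1-day HSC (6 in the main analysis), those higher in 1-day HSC than in hepatocytes 5, and those higher in hepatocytes than in Kupffer cells or in LSEC 1 each. With no minimum difference, 4 collagens were higher in hepatocytes and 1 in Kupffer cells than in each other population, 12 were higher and 1 lower in 1-day HSC than in LSEC, and 7 and 11 were higher in hepatocytes than in Kupffer cells and LSEC. In the processing list, 3 were then lower in culture (1 with no pseudocount), and 8 receptor or protease genes were higher in 1-day HSC. The share of all genes called is not given here for any alternative setting, so these counts have no baseline. The cause of the changed counts was not tested, beyond the loss of genes from the filter named in the text.

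Leaving out each array in turn gave 4 to 6 collagens higher in 1-day HSC, 4 to 7 against LSEC, 6 to 8 against hepatocytes and against Kupffer cells, 8 to 13 in culture and 10 to 13 against the fresh cells. The processing list had 5 to 10 in 1-day HSC, 13 to 14 higher and 0 to 1 lower in culture, and the receptor list 3 to 5 and 4 to 6. Over 15 same-numbered pairs of arrays the correlation of deviations from the group mean ran from -0.109 to 0.107. With so few arrays in a group, this cannot show whether arrays of the same number shared animals. With the replicate block, 5 collagens were higher in 1-day HSC, Col12a1 being lost at 0.97. No paired analysis was possible for the culture comparison because the 7-day and 14-day arrays carry no number. Probe sets near the array background limit what can be said of the uncalled members, and 1 array at each later day limits the time course.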
